A study of Mus musculus with 16 samples.

Results

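The cells described here are cycling CD8 T cells: cytotoxic T lymphocytes from mouse melanomas with transcripts of Mki67 or Top2a, genes of dividing cells. The name holds less well for the 33.7% of them with 1 UMI of the pair, whose other cell cycle genes lay near the level of cells with none. They were chosen from raw UMI counts (unique molecular identifiers, 1 per captured RNA molecule). Droplet barcodes needed at least 200 genes detected and no more than 10% of UMIs from mitochondria. A member had at least 2 UMIs of the T cell receptor complex (Cd3d, Cd3e, Cd3g and Trac together) and at least 1 of the CD8 chains (Cd8a and Cd8b1). It had no UMI of Cd4, Foxp3 or Ncr1, at most 5 of the macrophage complement genes C1qa, C1qb and C1qc, and at least 1 of Mki67 and Top2a together. Of 116552 barcodes, 99357 passed the cell filter, 14147 passed the CD8 criteria and 4444 of those held Mki67 or Top2a. The members were thus 31.4% of the CD8 T cells and 4.47% of all filtered barcodes. The other 9703 CD8 T cells, with no UMI of either gene, are called non-cycling below.

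C57BL/6J mice carried subcutaneous tumours grown from 1000000 Bro4.1 B16 melanoma cells, either control or B2m-null, and received 100 µg of an agonist antibody to CD40 or of rat IgG2a isotype antibody intraperitoneally on days 6, 9 and 12. On day 14 the tumours were taken, CD45+ leukocytes were enriched on magnetic beads, and the cells of each mouse were marked with a hashtag antibody and pooled by group for 10x 3' sequencing. The hashtags separated 5 mice in the control isotype group, 2 in the control CD40 group, 5 in the B2m-null isotype group and 4 in the B2m-null CD40 group. The labels list 3 hashtags for every pool, whereas the deposited counts hold 2 in 6 of the 8 lanes. Mice were counted from the hashtags with counts. Whether cells of a further mouse were assigned to the mice of such a lane was not tested. The series' design text places the loss of B2m in the implanted tumour cells, whereas the sample labels write "B2M KO" in the genotype field of the mouse. Both control CD40 lanes are technical replicates of 1 pool, so that pool and that group cannot be told apart.

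CD8 T cells recognise peptides on MHC class I, whose surface display needs the B2m light chain, and after priming they divide many times while acquiring granzymes, perforin and inhibitory receptors such as PD-1. CD40 is a receptor on dendritic cells, macrophages and B cells. Its ligation licenses dendritic cells to prime CD8 T cells. In a dividing cell, E2F factors turn on the replication genes before S phase, and the MuvB complex with B-MYB and FOXM1 turns on the mitotic genes later, through CHR and CCAAT elements. Histone genes are made mainly in S phase, and the linker histones H1 bind the DNA that enters and leaves the nucleosome.

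The promoters of 5 cell cycle genes are shown for the CHR, CCAAT and E2F motifs of such genes, and because Hist1h1b and Hist1h1e fell under CD40 agonist in both genotypes. Sequences are from RefSeq on GRCm38.p6, run 5' to 3' on the gene's strand and end at the base before the annotated start. Capitals mark the motifs searched on both strands: CHR (TTTGAA), the CCAAT box (CCAAT, or ATTGG where it lies on the other strand), E2F (TTTCGCGC, TTTGGCGC or TTTCCCGC, or their reverse complements such as GCGCCAAA) and, for the histones, the H1 box (AAACACA). A match is a run of letters, not a shown binding site.
Hist1h1b (linker histone, annotated as H1f5, minus strand, chr13:21780626-21780755): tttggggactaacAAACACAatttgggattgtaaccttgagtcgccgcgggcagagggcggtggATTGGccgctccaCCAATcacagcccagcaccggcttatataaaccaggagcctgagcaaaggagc
Hist1h1e (linker histone, annotated as H1f4, minus strand, chr13:23622559-23622688): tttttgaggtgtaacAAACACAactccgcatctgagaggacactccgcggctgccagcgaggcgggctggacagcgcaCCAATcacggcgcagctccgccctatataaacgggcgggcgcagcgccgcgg
Hist1h1a (linker histone, annotated as H1f1, plus strand, chr13:23763538-23763667): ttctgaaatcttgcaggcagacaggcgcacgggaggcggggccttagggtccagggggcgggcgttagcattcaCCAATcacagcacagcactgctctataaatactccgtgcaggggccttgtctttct
Cdk1 (mitotic kinase, minus strand, chr10:69352913-69353112): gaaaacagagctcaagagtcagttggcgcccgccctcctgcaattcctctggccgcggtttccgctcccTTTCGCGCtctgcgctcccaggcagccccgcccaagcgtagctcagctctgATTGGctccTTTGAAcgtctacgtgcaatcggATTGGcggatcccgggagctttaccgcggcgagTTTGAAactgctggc
Pola1 (catalytic subunit of DNA polymerase alpha, minus strand, chrX:93632156-93632315): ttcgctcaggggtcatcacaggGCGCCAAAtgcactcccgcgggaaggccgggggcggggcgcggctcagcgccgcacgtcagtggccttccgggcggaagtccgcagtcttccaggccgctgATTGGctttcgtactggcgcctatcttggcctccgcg

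The H1 box lies 117 bases before the start of Hist1h1b and 115 before that of Hist1h1e, and Hist1h1a has none in its window. The Cdk1 promoter holds an E2F motif 131 bases before the start and CHR motifs at 71 and 15 bases, whereas the Pola1 promoter holds an E2F motif at 138 bases and no CHR. Over windows from 250 bases before to 50 after the start, CHR was found in 63.46% of 52 mitosis genes and 11.43% of 35 replication genes, against 20.23% of 27025 genes in the table. E2F motifs were found in 9.615% of the mitosis genes, 14 of the 35 replication genes and 2.12% of all genes. CHR and CCAAT stood together in 51.92% of the mitosis genes, 8.571% of the replication genes and 8.973% of all. The H1 box, added after the fall of linker histone genes had been seen, is in 4 of the 5 tested (Hist1h1b, c, d and e) and in 8.222% of all genes.

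Lanes held 45985739 to 99264875 UMIs and 145 to 863 members each, with a median of 2980.5 to 8794.5 UMIs per member and 1541 to 2676 per non-cycling CD8 T cell. Hashtags left 63.4% of members unassigned in the first B2m-null isotype lane, 37.3% in the first B2m-null CD40 lane and 2.05 to 9.93% in the other lanes, and marked 1.97 to 10.4% as doublets; both were kept out of values by mouse. A mouse entered the expression tests with at least 20 member cells, which left 14 of 16 mice (5 isotype and 2 CD40 mice with control tumours, 3 isotype and 4 CD40 mice with B2m-null tumours) with 26 to 951 members. Mice with 26 and 27 members in the B2m-null isotype group are the shallowest. Any 2 lanes shared 41 to 92 barcode sequences, and at most 1 of those was a member in both. Labels call lanes of the other groups replicates without naming separate litters or days, so p-values here measure the spread between these mice. Mice of 1 pool share a lane and are not independent of each other in this respect. In the control CD40 group the spread lies within 1 pool and holds no variation between pools. Counts of calls with the lane as the unit are given at the end.

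Below, CPM is the count per 1000000 UMIs of a mouse's summed members, changes are on the log2 scale with their standard error (SE), and a gene is called higher or lower where the edgeR quasi-likelihood test gave an adjusted p under 0.05 over all 10204 genes tested. B2m itself, which the tumour genotype targets, stood at 2442, 2246, 2375, 2648 and 2542 CPM in control isotype members and 2522, 2262 and 2007 in B2m-null isotype members (log2 difference -0.20 ± 0.10, edgeR adjusted p = 0.61). Members of B2m-null tumours thus held B2m transcripts; per the design text the loss is in the tumour cells, and counts from the 3' end check no deletion elsewhere in a gene.

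Of the 11 genes on the CD8 T cell list, 6 (Cd8a, Cd8b1, Cd3d, Cd3e, Cd3g, Trac) were used by the rule and cannot check the label. The other 5 (Trbc1, Trbc2, Lck, Cd2, Thy1) were detected in every group and summed to 1747 to 4086 CPM per mouse, against 36.4 to 91.8 CPM in the barcodes of each group with no UMI of Cd3d, Cd3e, Cd3g or Trac, called non-T below; both sets were chosen by these T cell receptor genes. Markers of other cells were also present. The 18 macrophage genes summed to 2300 to 5390 CPM per mouse, against 18721 to 21907 in the non-T barcodes, and the 15 dendritic genes to 1422 to 7262 CPM, against 7052 to 11726. In B2m-null isotype mice the members' dendritic sums, 4096 to 7262 CPM, reached the 7052 CPM of the non-T barcodes of that group. A UMI of C1qa, C1qb, C1qc, Lyz2 or Apoe was in 58.9% of members and 47.2% of non-cycling CD8 T cells. Members had a median of 4608 UMIs and non-cycling cells 1879, so these shares are not at equal depth. Cd4, Foxp3 and Ncr1 are at 0 because the rule set them so.

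Proliferation transcripts were graded among the members. Both Mki67, which coats mitotic chromosomes, and Top2a, the topoisomerase that untangles replicated DNA, were present in 2376 members (53.5%), Mki67 alone in 766 and Top2a alone in 1302. At the threshold, 1496 members (33.7%) had 1 UMI of the pair, and their other cell cycle genes summed to a median of 4357 CPM per cell. The 9703 cells just outside, with none, had 3241 CPM, while 507 members with 2 UMIs had 12465 and 2441 with 3 or more had 22620. Members at 1 UMI made up 48.7% and 45.6% of the members in the control CD40 lanes and 43.2% in the second B2m-null CD40 lane, against 20.4 to 25.6% in the other 5 lanes. At the other limits, 207 members had a T cell receptor sum of 2 and 142 cells with a sum of 1 stayed out. For Cd8a and Cd8b1, 476 members had 1 UMI and 859 cells had none. For C1q, 32 members had a sum of 5 and 38 cells had a sum of 6. With those 38, the C1q limit kept out 1352 cells that met the other criteria. Only 9 members had no UMI of any other cell cycle gene, and 107 held over 20000 UMIs.

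**Figure D1:**
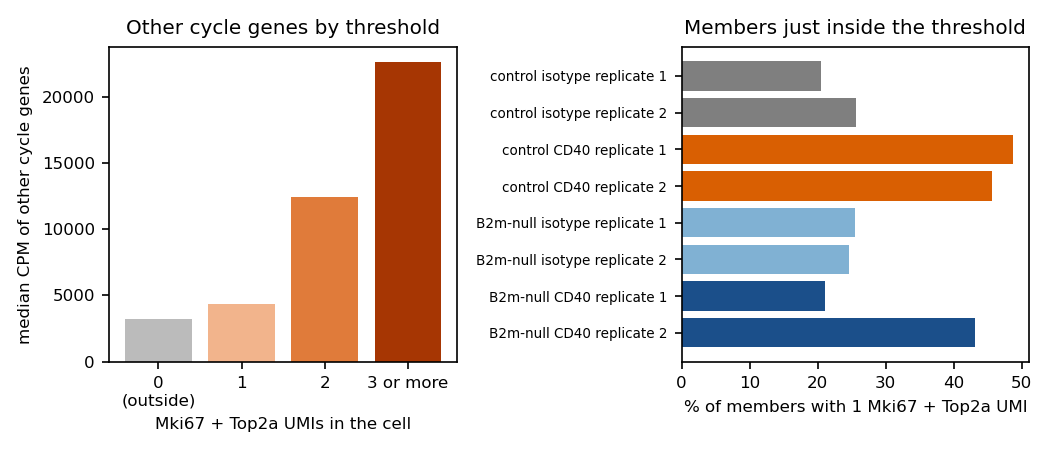
Left, median CPM per cell of cell cycle genes other than Mki67 and Top2a (bars) in CD8 T cells with 0, 1, 2 or at least 3 UMIs of Mki67 and Top2a; right, percentage of each lane's members with 1 UMI of the pair. Cells with 1 UMI had 4357 CPM, near the 3241 CPM of cells with none, and they made up 43.2 to 48.7% of members in 3 of the 4 CD40 lanes.

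How large the cycling compartment was under each condition was asked with the percentage of CD8 T cells that cycled, every cell thinned to 1000 UMIs so that depth is equal. Control isotype tumours had 38.9, 29.4, 35.7, 31.5 and 27.9% cycling cells per mouse, and the control CD40 tumours 18.5 and 13.1%. The groups did not overlap: the mean was 15.8% ± 3.81 (SD, n = 2) under CD40 agonist and 32.7% ± 4.54 (SD, n = 5) under isotype, a difference of -16.9 percentage points (two-sided exact permutation p = 0.0952, the smallest this design can give; adjusted over 8 comparisons, 0.254). Without thinning the difference was -31.9 points, and with at least 2 UMIs of Mki67 and Top2a required it was -9.03 points. In B2m-null tumours the 4 isotype mice had 39.00, 22.9, 27.1 and 19.9% and the 4 CD40 mice 33.5, 38.4, 11.2 and 15.4%, which overlap (difference -2.57 points, two-sided exact permutation p = 0.743). The CD40 mice of that genotype split by lane, with 33.5 and 38.4% in the first and 11.2 and 15.4% in the second. Thinning left out 1209 CD8 T cells under 1000 UMIs in the control CD40 group, against 52 in the control isotype group and, in B2m-null tumours, 11 under isotype and 155 under CD40 agonist.

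Measured against all filtered cells of a mouse, cycling CD8 T cells were 2.01, 0.729, 1.67, 3.41 and 0.707% in the B2m-null isotype mice and 3.51, 11.2, 6.29 and 6.91% in the B2m-null CD40 mice. These groups did not overlap (mean 6.98% ± 3.17, SD, n = 4, against 1.70% ± 1.11, SD, n = 5; two-sided exact permutation p = 0.0159, the smallest possible here; adjusted 0.0952). Control isotype mice had 9.63, 2.76, 3.94, 3.65 and 3.28%, the first well above the rest, and the control CD40 mice 6.08 and 5.38%, within that range (difference 1.08 points, two-sided exact permutation p = 0.667; -0.400 points with at least 2 UMIs of Mki67 and Top2a). Under isotype the B2m-null tumours were 2.95 points below the control tumours, with overlapping mice (two-sided exact permutation p = 0.0238, adjusted 0.0952). A share is set by the abundance of every other leukocyte too, so a higher share does not count cells per tumour.

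**Figure D2:**
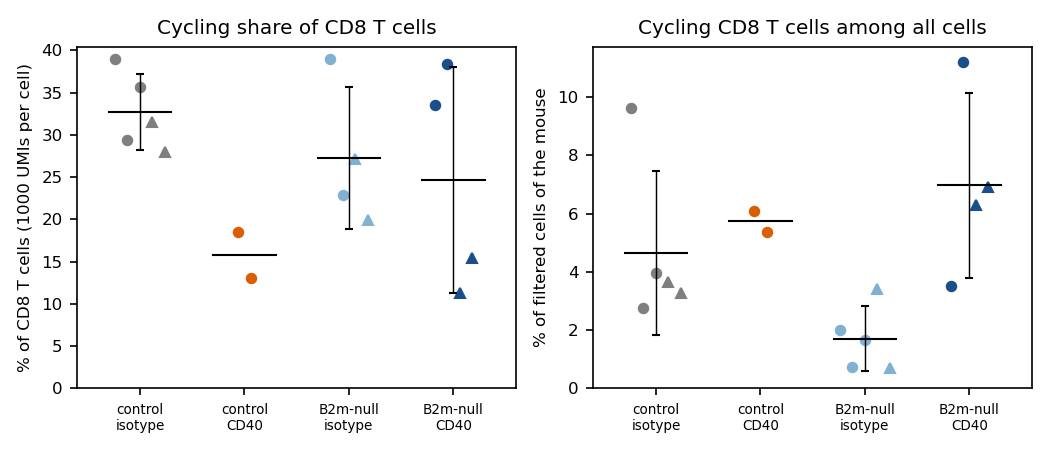
Percentage of CD8 T cells that cycled, thinned to 1000 UMIs per cell (left), and percentage of all filtered cells that were cycling CD8 T cells (right); each point is 1 mouse, circles for replicate 1 or the single control CD40 pool and triangles for replicate 2, with the mean as a line and the SD as bars where a group has more than 2 mice. Control CD40 mice sit at 13.1 and 18.5% on the left, under all control isotype mice, and B2m-null CD40 mice sit at 3.51 to 11.2% on the right, over all B2m-null isotype mice.

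Beside the non-cycling CD8 T cells of the same mice, members held more of the division genes; since the rule chose them by Mki67 and Top2a, this is a description. Only genes of the gene lists with a median of at least 20 CPM in either set of cells are counted in this paragraph. Over 14 mice the largest median log2 ratios among these were those of Esco2 (5.57), the acetyltransferase that locks cohesin on replicated chromatids, Nusap1 (5.43), a spindle protein, Cenpf (4.94) and Nuf2 (4.86) of the kinetochore, and the kinase Cdk1 (4.40). Knl1 (4.33), Ckap2l (4.24), Aurkb (4.19), Hmmr (4.10) and Tpx2 (4.08), all of the mitotic machinery, came next. Esco2 and Nuf2 had a median of 0 CPM in non-cycling cells, so their ratios depend on the pseudocount of 1 CPM. The median was 3.32 over the mitosis list, with 60 of 61 genes higher, 1.95 over the replication list (41 of 41) and 2.00 over the histones (7 of 7). Cholesterol synthesis genes were also higher (median 0.51, 16 of 16 genes). Of the 25 memory and stem-like genes 19 reached that level and had a median ratio below 0 (list median -0.95), among them Bach2 (-1.40), a repressor that preserves memory potential. Of 39 interferon-response genes 2 were higher (median -0.65). Markers of some other cells had lower levels as well, with a median of -0.56 over 17 macrophage genes (0 higher), -0.56 over 4 NK and gamma-delta T cell genes (0 higher) and -0.36 over 7 dendritic genes (1 higher), whereas 5 of 6 stromal genes were higher (median 0.11). The part of these cells' RNA in the lower lists was not tested. Genes of inhibitory receptors and exhaustion (median -0.11, 9 of 27 higher) and cytotoxic genes (median -0.17, 3 of 15 higher) lay near their level in non-cycling cells.

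Replication and mitosis genes were summed per mouse. The summed replication genes of a control isotype mouse stood between 5054 and 6035 CPM and the summed mitosis genes between 10754 and 12813 CPM, 1.82 to 2.28 times as much. Control CD40 mice had 4981 and 3533 CPM of replication genes and a mitosis to replication ratio of 2.49 and 2.47. The ratio was 1.84 to 2.32 in B2m-null isotype mice and 2.41 to 2.73 in B2m-null CD40 mice, so in both genotypes every CD40 mouse lay above every isotype mouse. These sums were chosen and compared after values were known and carry no test.

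In control tumours, CD40 agonist went with a broad change of the members. The genes called higher included S1pr1, Klf2, Cxcr3 and Itgb7, of T cell trafficking and memory. Those called lower included the inhibitory receptors Pdcd1 and Havcr2, the perforin gene Prf1, 4 of 5 linker histone genes, 13 of 43 replication genes and 5 of 21 cholesterol synthesis genes. In all, 743 genes were called higher and 723 lower, 14.4% of the 10204 tested (7.28% higher, 7.09% lower). The groups of mice did not overlap for 96.9% of the raised and 98.3% of the lowered genes, against 35.4% of all genes tested. Barcodes without T cell UMIs in the same lanes were also higher under CD40 agonist for 74.5% of the raised genes and 6.78% of the lowered genes, and for 38.7% of all genes tested; how much of the change is particular to the members was not tested in this fit. The count fell to 272 without the first control isotype lane (3 mice) and to 800 and 310 without the first and second control CD40 mouse. With the lane as the unit it fell to 174.

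Genes of T cell exit and memory were among the rises. S1pr1, the sphingosine 1-phosphate receptor that lets T cells leave tissue for lymph and blood, stood at 5.95, 6.94, 7.88, 3.69 and 11.7 CPM in the 5 control isotype mice and at 51.6 and 82.3 in the 2 control CD40 mice. Every CD40 mouse was above every isotype mouse, a log2 change of 3.25 ± 0.32 (SE; edgeR adjusted p = 1.11e-05). In non-T barcodes S1pr1 was at 10.3 and 11.7 CPM. Klf2, a factor that activates S1pr1 and holds T cells in a quiescent, recirculating state, was at 53.0, 86.3, 89.6, 47.9 and 89.9 CPM under isotype and 236 and 271 under CD40 agonist, again without overlap (1.80 ± 0.30; edgeR adjusted p = 0.00198). Of 24 tested genes of the memory and stem-like list, 9 rose (Lef1, Slamf6, Bach2, Foxp1, Klf2, Klf3, S1pr1, Cd28, Satb1) and 2 fell (Ccr7, Cd9), with a list median of 0.99 against 0.00 over all genes tested. Lef1, a TCF family factor of naive and memory T cells, changed by 1.31 ± 0.27, Slamf6, a marker of progenitor-like cells, by 1.59 ± 0.44, and Bach2 by 1.41 ± 0.40. Their levels were low: Bach2 was at 7.58, 8.93, 7.17, 8.11 and 10.8 CPM and then 21.0 and 23.8. Tcf7, which encodes TCF-1, was at 26.0, 35.7, 28.0, 20.6 and 17.1 CPM and 70.8 and 84.7, also without overlap, but was not called (1.62 ± 0.60; edgeR adjusted p = 0.1). Il7r was not called either (0.53 ± 0.31). Memory and stem-like genes were lower in cycling than in non-cycling cells (list median -0.95). Members at 1 UMI of Mki67 and Top2a made up 48.7% and 45.6% of members in the control CD40 lanes. In the control isotype lanes they made up 20.4% and 25.6%. Whether this mix has a part in the rises was not tested.

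Some genes of effector T cells and tissue entry rose as well. Cxcr3, the receptor for the interferon-induced chemokines CXCL9 and CXCL10, was at 17.3, 14.9, 17.9, 6.64 and 18.9 CPM under isotype and 63.6 and 76.7 under CD40 agonist (2.21 ± 0.40; edgeR adjusted p = 0.0034). Itgb7, an integrin chain of gut and mucosal homing, was at 30.3, 45.6, 39.4, 31.7 and 53.0 and 107 and 131 CPM (1.59 ± 0.19; edgeR adjusted p = 3.46e-05). For both genes the lowest CD40 mouse exceeded the highest isotype mouse. The effector list had 7 of 27 genes higher (among them Klrg1, Cxcr3, Itgb7, Runx3, Hopx and Ifngas1) and 1 lower, Itgae, the CD103 chain of resident T cells (13.0, 14.9, 7.88, 15.5 and 28.8 against 4.20 and 3.22 CPM), with a list median of 0.42. Klrg1, a receptor of short-lived effectors, rose from 5.95, 1.98, 7.17, 8.85 and 28.8 CPM to 50.4 and 35.7 (2.05 ± 0.57; edgeR adjusted p = 0.0345). Ifngas1, a noncoding RNA beside Ifng, went from at most 1.48 CPM under isotype to 17.4 and 24.1 CPM (4.66 ± 0.54). Ifng itself was not called (-0.22 ± 0.88, edgeR adjusted p = 0.916), at 383, 384, 407, 369 and 342 CPM under isotype and 322 and 326 under CD40 agonist. The latter sum 2 technical lanes that differed: the CD40 mice had Ifng at 351 and 422 CPM in the first and 278 and 186 in the second. Ripor2, an inhibitor of RhoA linked to T cell migration, rose from 15.2, 20.8, 15.1, 14.0 and 19.8 CPM to 80.4 and 114 (2.55 ± 0.20; edgeR adjusted p = 3.21e-07). Cd7, a T and NK cell surface protein, rose from 15.7, 25.8, 25.8, 14.8 and 10.8 CPM to 70.8 and 97.5.

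**Figure D3:**
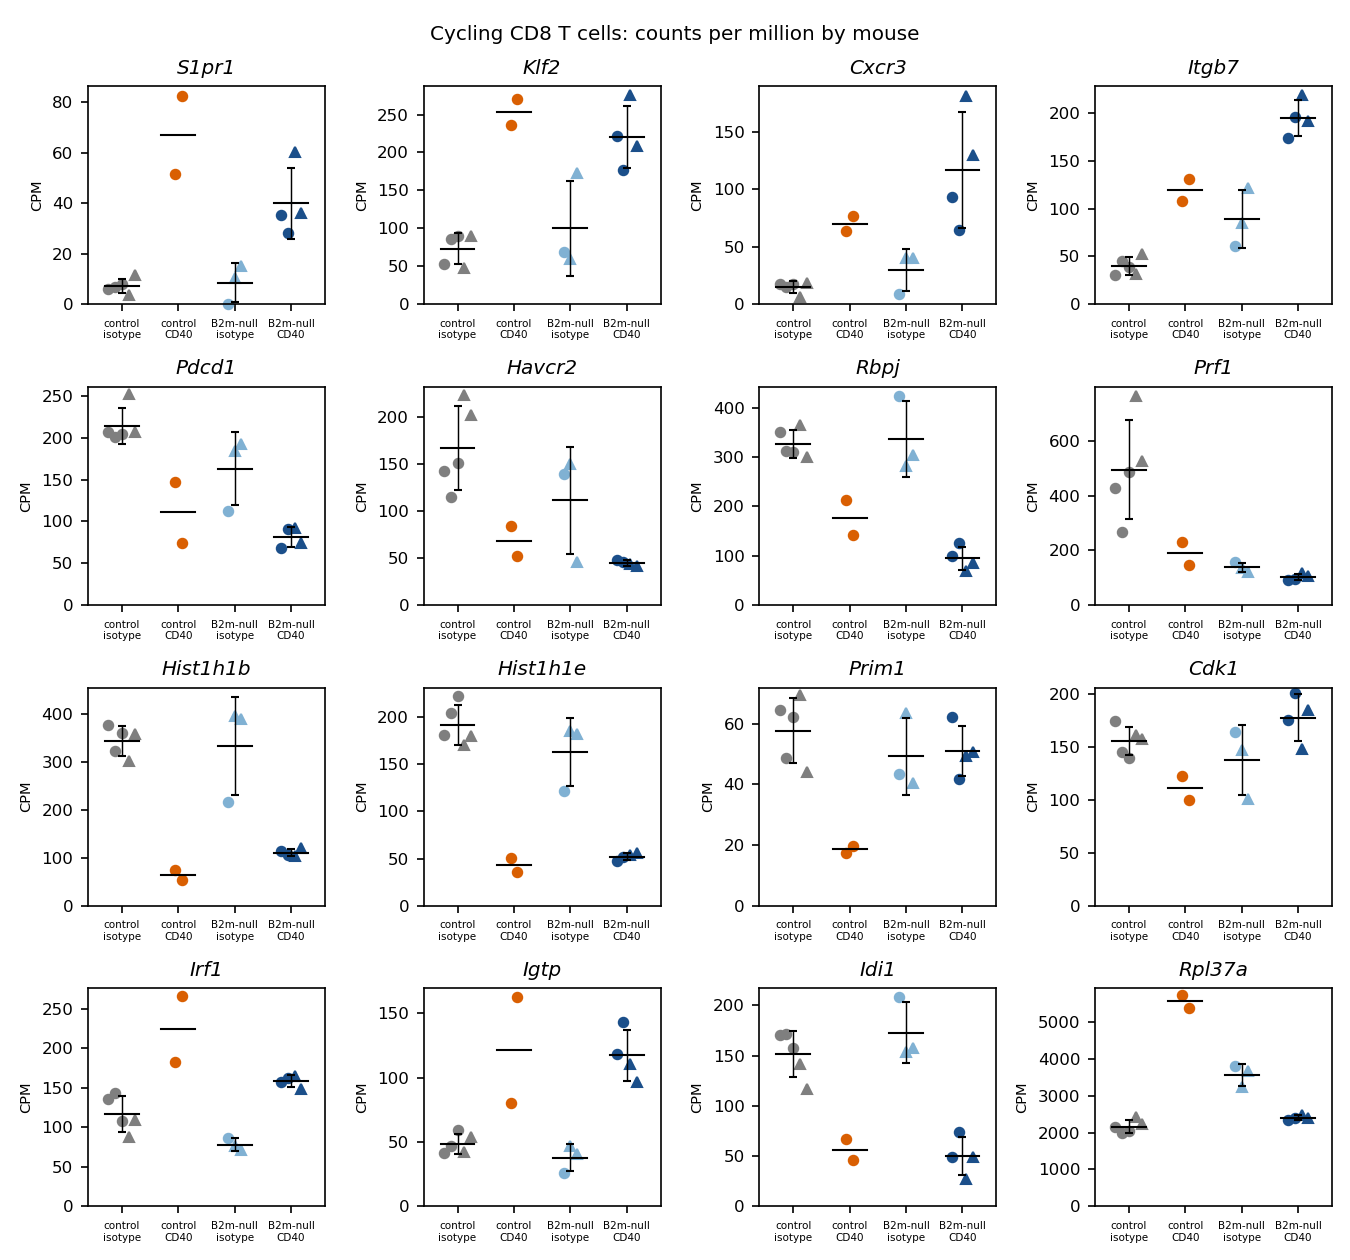
CPM of 16 genes in the summed members of each mouse (linear axes from 0), 1 panel per gene and 1 point per mouse, by group; circles mark replicate 1 or the single control CD40 pool, triangles replicate 2. S1pr1 and Klf2 are above the isotype mice in every CD40 mouse of both genotypes and Hist1h1b and Hist1h1e below them, while Prim1 is lowest in the 2 control CD40 mice.

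Some inhibitory and costimulatory receptors fell. Pdcd1, which encodes PD-1, was at 207, 201, 204, 252 and 207 CPM under isotype and 147 and 74.6 under CD40 agonist (-0.97 ± 0.23; edgeR adjusted p = 0.0102). Havcr2, which encodes TIM-3, was at 142, 115, 151, 223 and 202 and 83.4 and 51.6 CPM (-1.32 ± 0.32; edgeR adjusted p = 0.0134), and Rbpj, the DNA-binding partner of Notch, at 350.2, 312, 309.6, 364 and 299 and 212 and 142 CPM (-0.89 ± 0.20). None of these 3 genes had overlapping mice. Of 30 inhibitory and exhaustion genes tested, 6 fell (Pdcd1, Havcr2, Cd244a, Rbpj, Tnfrsf9, Tnfrsf4) and 1 rose (Cd38), with a median of -0.23; Tnfrsf9 and Tnfrsf4 encode the costimulatory receptors 4-1BB and OX40. Lag3 (-0.02 ± 0.23) and Tox, a factor of exhausted T cells (-0.27 ± 0.21), were not called. Without the second control CD40 mouse the calls of Pdcd1 (-0.51, edgeR adjusted p = 0.28), Havcr2 (-0.96, 0.22) and Rbpj (-0.59, 0.19) were lost, that mouse being the lower one for each.

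Of 19 cytotoxic genes 1 rose and 1 fell, with a median of -0.29 against 0.00 over all genes tested. Prf1, the pore-forming perforin, was at 429, 267, 486, 766 and 528 CPM under isotype and 232 and 147 under CD40 agonist (-1.40 ± 0.32; edgeR adjusted p = 0.0117). Fasl, the death ligand, rose from 46.0, 35.7, 41.6, 32.5 and 41.3 CPM to 86.4 and 67.2 (0.94 ± 0.21; edgeR adjusted p = 0.00516). Gzmb was at 1531, 1224, 1909, 1972 and 1504 and 1223 and 688 CPM and was not called, nor was Gzma, at 85.0, 129, 40.9, 29.5 and 94.4 and 282 and 269 CPM without overlap (1.88 ± 0.63; edgeR adjusted p = 0.0746). The chemokine gene Ccl5 rose from 1205, 1279, 912, 1319 and 1954 CPM to 4084 and 8667 (2.26 ± 0.62; edgeR adjusted p = 0.0371).

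Of 5 linker histone genes 4 fell. Hist1h1b was at 379, 323, 362, 302 and 359 CPM in control isotype mice and 75.6 and 53.3 in control CD40 mice (-2.44 ± 0.22; edgeR adjusted p = 1.45e-06). Hist1h1e was at 181, 204, 222, 170.4 and 179.7 and 50.4 and 35.9 CPM (-2.17 ± 0.20; edgeR adjusted p = 1.77e-06). Hist1h1a, whose promoter lacks the H1 box in the window shown above, fell as far (-2.35 ± 0.45), and Hist1h1c fell less (-0.76 ± 0.18), while Hist1h1d was not called (-0.59 ± 0.34; edgeR adjusted p = 0.259). The 4 were the called genes among 22 histone genes tested (median -0.63). In non-T barcodes Hist1h1b went from 63.6 to 8.47 CPM and Hist1h1e from 53.4 to 10.7 CPM, so both also were lower outside the members. Among non-cycling CD8 T cells Hist1h1b changed by -2.92 (edgeR adjusted p = 0.00232). Whether a lane or library effect has a part in these falls was not tested.

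Of 43 replication genes 13 fell and none rose (median -0.45). Prim1, the catalytic subunit of primase, was at 64.4, 48.6, 62.4, 69.3 and 44.0 CPM under isotype and 17.4 and 19.8 under CD40 agonist (-1.63 ± 0.23; edgeR adjusted p = 0.000145). Gins2 of the replicative helicase (-1.58 ± 0.23), Tipin of the fork protection complex (-1.08 ± 0.17), Rfc4 of the clamp loader (-1.04 ± 0.16), Pola1 (-1.04 ± 0.24) and Tyms, which makes thymidylate (-0.83 ± 0.22), also fell, whereas Pcna, the sliding clamp, was not called (0.03 ± 0.22). Of 62 mitosis genes 12 fell, among them Hmmr (-0.73 ± 0.18) and Ccnb2, a mitotic cyclin (-0.61 ± 0.20), and 2 rose, the phosphatase gene Cdc25b (0.94 ± 0.20) and Cenpw (median -0.36). Of 31 genes that control the cycle 4 rose (Cdkn1b, E2f2, Btg1, Tob1) and 3 fell (Cdk6, E2f4, Trp53). Over all genes tested 7.28% rose and 7.09% fell. The inhibitor Cdkn1b, which encodes p27, changed by 0.61 ± 0.18 (50.9, 86.3, 65.9, 57.5 and 62.0 against 91.8 and 103 CPM). Tob1, also an inhibitor, changed by 1.73 ± 0.27, while the raised E2f2 belongs to the E2F family. Members with at least 2 UMIs of Mki67 and Top2a gave 7 replication and 3 mitosis genes lower, 3 mitosis genes higher and medians of -0.19 and -0.10, beside the higher share of members at 1 UMI in the control CD40 lanes. Over all 9695 genes tested with at least 2 UMIs, 534 were called higher and 478 lower. Hist1h1a, Hist1h1b, Hist1h1c and Hist1h1e fell among those members as well.

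Of the interferon-response genes more rose than fell, and of the cholesterol synthesis genes some fell. Irf1, a factor induced by interferon gamma, was at 135, 144, 108, 87.8 and 109.6 CPM under isotype and 182 and 266 under CD40 agonist (0.94 ± 0.17; edgeR adjusted p = 0.0011), and Igtp, an interferon-inducible GTPase, at 41.7, 46.6, 59.5, 42.0 and 53.9 and 80.4 and 162 CPM (1.33 ± 0.21). In all 8 of 44 interferon genes rose (Ifit1bl1, Irf1, Irf9, Gbp4, Gbp6, Igtp, Irgm1, Irgm2) and 3 fell (Ifit2, Irf8, Oasl1), with a median of 0.13. Idi1, the isomerase that supplies isoprenoid units, was at 171, 172, 158, 142 and 117 CPM and then 66.6 and 45.8 (-1.45 ± 0.27; edgeR adjusted p = 0.00214). Idi1, Cyp51, Sc5d and Pmvk were among the 5 genes that fell of 21 in cholesterol synthesis (median -0.59), with none rising. Ldha, lactate dehydrogenase, was the single glycolysis gene of 23 to fall (-0.73 ± 0.18).

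Transcripts of other cells moved as well. The 15 dendritic markers summed to 2142 to 5429 CPM in control isotype members and 1422 to 2045 CPM in control CD40 members. Of these, 6 fell, among them Xcr1, a receptor of type 1 dendritic cells (17.9, 31.7, 10.0, 25.1 and 38.6 against 0.600 and 2.15 CPM), and Flt3 (-2.16 ± 0.54); Siglech was at 0 in the control CD40 members. Ccr7, which is in both the memory and the dendritic list, fell from 77.9, 103, 90.3, 105 and 62.0 CPM to 21.6 and 14.2 (-2.35 ± 0.29), and in non-T barcodes from 70.5 to 5.04 CPM. The immunoglobulin gene Igkc was at 37.9, 44.6, 32.3, 8.11 and 29.7 CPM and then 1938 and 934 (5.56 ± 1.21). Most of it came from the first of the 2 technical lanes, with Igkc at 3139 and 1426 CPM there against 83.9 and 213 CPM in the second, and single cells of the first lane held 1169 of 3174 and 1878 of 3945 Igkc UMIs. The 8 B cell markers summed to 37.6 to 1422 and to 227 and 562 CPM, with Cd79a and Cd79b called higher of 6 tested (median 2.88). Of 8 NK and gamma-delta T cell genes tested Tcrg-C4 was called higher (list median 0.65). The 8 melanoma genes summed to 19.8 to 431 CPM under isotype and 316 and 1946 CPM under CD40 agonist (list median 3.00, Tyr called higher), and the 10 stromal genes to 172 to 819 and to 37.2 and 1517 CPM (median 0.84, Pecam1 called higher). The 18 macrophage genes summed to 2796 to 5390 and to 2300 and 2821 CPM (median -0.44, Fcgr1 and Cst3 called lower). The part of these cells' RNA in the changes above was not tested beyond one measurement: members with no UMI of C1qa, C1qb, C1qc, Lyz2 or Apoe gave 1400 called genes, with S1pr1 at 3.63, Klf2 at 2.60, Pdcd1 at -0.86 and Hist1h1b at -2.42.

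In B2m-null tumours, CD40 agonist went with higher S1pr1, Klf2, Cxcr3 and Itgb7 in the members, with lower Pdcd1, Havcr2, Rbpj, Hist1h1b and Hist1h1e, and with 7 of 44 interferon-response genes higher. Of the replication and mitosis lists 1 gene each rose (Rpa2 and Ube2s) and none fell. The test called 202 genes higher and 151 lower, 3.46% of 10204 (1.98% higher, 1.48% lower), and mice did not overlap for 86.1% and 90.7% of these, against 17.0% of all genes tested. Non-T barcodes were higher under CD40 agonist for 77.1% of the raised genes, 1.32% of the lowered genes and 27.2% of all. The count moved with the cells and mice used: 11 genes were called among members with no UMI of C1qa, C1qb, C1qc, Lyz2 or Apoe, 55 with at least 40 members per mouse (17 higher, 38 lower), 30 with the stricter cell filter of at least 500 genes and at most 5% mitochondrial UMIs (4 higher, 26 lower), 84 without the second and 719 without the first B2m-null CD40 lane. The 11 included Itgb7 (1.66), Ripor2 (2.29), Ly6a (1.38), Rbpj (-1.67) and Hist1h1b (-1.75), 5 of the genes described next.

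Under isotype the 3 B2m-null mice had S1pr1 at 0, 10.3 and 15.2 CPM, and under CD40 agonist the 4 mice had 35.2, 28.1, 60.2 and 36.2 (2.12 ± 0.44; edgeR adjusted p = 0.0123). The groups did not overlap, while in non-T barcodes S1pr1 was lower under CD40 agonist (22.8 against 7.17 CPM). Klf2 was at 69.3, 59.0 and 172 and 221, 177, 276 and 209 CPM (1.45 ± 0.36; edgeR adjusted p = 0.0437), with the lowest CD40 mouse just above the highest isotype mouse; with RLE in place of TMM scaling its adjusted p was 0.0543. Cxcr3 was at 8.67, 40.05 and 40.5 and 93.1, 64.4, 181 and 129.6 CPM (1.83 ± 0.45; edgeR adjusted p = 0.044). Itgb7 was at 60.7, 85.2 and 122 and 174, 195, 219 and 191 CPM (1.26 ± 0.21; edgeR adjusted p = 0.00261), without overlap for either gene. S1pr1, Klf2 and Cxcr3 were past the threshold neither without the second B2m-null CD40 lane (edgeR adjusted p = 0.066, 0.23 and 0.13) nor among members free of the macrophage transcripts (0.097, 0.097 and 0.56). Of the 24 memory and stem-like genes, Klf2 and S1pr1 rose and Ccr7 fell (median 0.28 against 0.06 over all genes tested), and Lef1, Slamf6 and Tcf7 were not called (0.43 ± 0.29, 0.41 ± 0.49 and 0.05 ± 0.70). Ripor2 rose from 8.67, 21.6 and 25.3 CPM to 88.9, 58.8, 89.4 and 71.7 (1.98 ± 0.27; edgeR adjusted p = 0.000612) and Cd7 by 1.78 ± 0.30.

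Pdcd1 fell from 113, 185 and 193 CPM to 68.3, 90.8, 91.7 and 74.3 (-0.90 ± 0.23; edgeR adjusted p = 0.0354), and Rbpj from 425, 281 and 304 to 99.3, 125, 69.6 and 84.2 CPM (-1.62 ± 0.19; edgeR adjusted p = 0.000142), both without overlap. Havcr2 was at 139, 149 and 45.6 CPM and 47.6, 46.0, 43.3 and 41.5 (-1.28 ± 0.32; edgeR adjusted p = 0.04). For Havcr2 1 isotype mouse lay among the CD40 mice. Nr4a3, a nuclear receptor induced by T cell receptor signalling, fell from 69.3, 74.4 and 106 to 49.6, 14.1, 16.5 and 19.7 CPM (-1.83 ± 0.34). In all 6 of 30 inhibitory genes fell (Pdcd1, Havcr2, Cd244a, Nr4a3, Rbpj, Rgs16) and Cd160 rose. Pdcd1 was past the threshold without the first B2m-null isotype lane (0.021) but not without either B2m-null CD40 lane (edgeR adjusted p = 0.074 and 0.16).

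Of the linker histone genes 2 fell. Hist1h1b was at 217, 397 and 390.2 CPM under isotype and 114, 107, 104 and 119.8 under CD40 agonist (-1.50 ± 0.19; edgeR adjusted p = 0.000213), and Hist1h1e at 121, 186 and 182 and 47.6, 51.2, 54.1 and 55.9 CPM (-1.55 ± 0.18). Neither gene had overlapping mice. Hist1h1a (-0.80 ± 0.44), Hist1h1c (-0.28 ± 0.18) and Hist1h1d (-1.26 ± 0.35; edgeR adjusted p = 0.0523) were not called. Of 22 histone genes 7 fell and none rose (median -0.94). Idi1 fell from 208, 154 and 157 CPM to 49.6, 73.8, 27.8 and 48.7 (-1.58 ± 0.26; edgeR adjusted p = 0.00367), and Hmgcs1 and Cyp51 fell with it, 3 of 21 cholesterol genes (median -0.50). Replication genes stood near their isotype level: Prim1 was at 43.3, 63.7 and 40.5 CPM and 62.1, 41.8, 49.4 and 50.7 (-0.04 ± 0.22), and the list median was -0.10. Cdkn2d, which encodes the CDK inhibitor p19, rose from 43.3, 50.8 and 50.7 CPM to 91.0, 117, 116 and 117 (1.30 ± 0.18; edgeR adjusted p = 0.000702).

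Interferon-response genes had 7 of 44 higher (Ifit3, Irf7, Irf1, Ifi27l2a, Zbp1, Gbp6, Igtp) and none lower, with a median of 0.75. Irf1 stood at 86.7, 77.0 and 70.9 CPM and 157, 163, 166 and 148 (1.18 ± 0.20; edgeR adjusted p = 0.00236). Zbp1, a sensor of nucleic acids, was at 43.3, 65.2 and 65.9 CPM and 186, 161, 147 and 144 (1.48 ± 0.21; edgeR adjusted p = 0.000702), and Ly6a, an interferon-responsive surface protein of activated T cells, at 503, 343 and 127 CPM and 1158, 1304, 808 and 825 (1.85 ± 0.30). In each of the 3 genes all CD40 mice were above all isotype mice. The granule protein gene Nkg7 rose from 893, 979.6 and 958 CPM to 1359, 1418, 2161 and 1957 (1.03 ± 0.17, edgeR adjusted p = 0.00226). Prf1 was at 156, 137 and 122 CPM under isotype and 93.1, 96.8, 118 and 105 under CD40 agonist, lower without overlap, and was not called (-0.24 ± 0.32). The dendritic markers summed to 4096 to 7262 CPM in B2m-null isotype members and 1576 to 2908 CPM in B2m-null CD40 members, and 5 of 15 fell, including Flt3 (-3.95 ± 0.60) and Ccr7 (-3.54 ± 0.28; 199, 143 and 167 against 16.5, 16.2, 5.65 and 13.8 CPM), whose change was 0.55 among members free of the macrophage transcripts. Macrophage genes summed to 3605 to 4075 and to 2540 to 4963 CPM, with Mrc1 and Cst3 called lower and C1qa higher; the rule capped C1qa among members, so that its call is a description. Melanoma genes summed to 43.3 to 49.3 and to 21.1 to 1659 CPM (list median 4.31) and stromal genes to 20.02 to 1976 and to 34.9 to 2267 CPM (1.67), with none of either list called. B cell markers summed to 52.0 to 269 and to 83.7 to 2383 CPM (list median 2.17), with none of 6 tested called. In 1 CD40 mouse a single cell held 4713 of 4938 Igkc UMIs. Tcrg-C4 of the NK and gamma-delta list was called higher. The part of these cells' RNA in the changes was not tested. Ifng could not be read in 1 isotype mouse, where 583 of its 593 UMIs came from 1 cell.

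The CD40 comparisons of the 2 genotypes share no mice, so their calls can be set side by side. Both called 150 genes. These were 42.49% of the B2m-null list, where 14.4% of all genes tested were called in control tumours. They were 10.23% of the control list, where 3.46% of all genes tested were called in B2m-null tumours. Of the 150, 144 had the same sign (72 higher, 72 lower), against 61.11% of the same sign among all genes tested. S1pr1, Klf2, Cxcr3, Itgb7, Ifngas1, Ripor2, Irf1 and Igtp were higher in both, and Pdcd1, Havcr2, Rbpj, Cd244a, Hist1h1b, Hist1h1e, Idi1 and Cyp51 lower in both. The 2 fits are 1 model with a shared estimate of the spread.

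**Figure D4:**
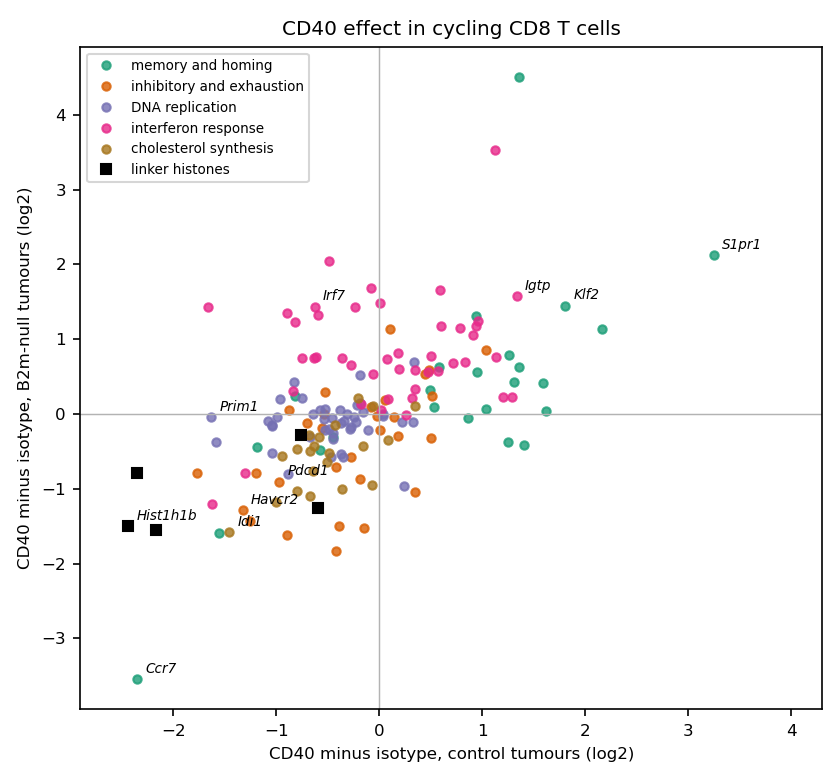
Log2 change under CD40 agonist in control tumours (x axis) and B2m-null tumours (y axis) for genes of 5 lists (colours; squares are linker histones). S1pr1 (3.25 and 2.12) and Hist1h1b (-2.44 and -1.50) lie on the same side in both genotypes, whereas Prim1 (-1.63 and -0.04) is low on the x axis only.

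Whether the response to CD40 agonist differed between the genotypes was tested directly as an interaction. It called 128 genes more positive and 53 more negative in B2m-null tumours, 1.77% of 10204 (1.25% and 0.519%). The balance turned in 3 alternatives, to 5 more positive and 19 more negative with at least 40 members per mouse, 11 and 24 among members free of the macrophage transcripts, and 2 and 18 with the stricter cell filter. Replication genes were 4 of these and all more positive: Prim1 (1.59 ± 0.32; edgeR adjusted p = 0.0159), Tyms (1.26 ± 0.31), Tipin (0.98 ± 0.24) and Rfc4 (0.89 ± 0.22), of 43 tested (median 0.32 against 0.04 over all genes). Cdk1 was at 174, 146, 139.8, 162 and 157 CPM under isotype and 123 and 99.5 under CD40 agonist in control tumours, at 165, 147 and 101 and 176, 201, 148 and 185 CPM in B2m-null tumours, and also differed (1.00 ± 0.24; edgeR adjusted p = 0.0368), as did Ube2s of the mitotic ubiquitin machinery (0.89 ± 0.23). Members with at least 2 UMIs of Mki67 and Top2a gave no replication or mitosis gene in this contrast, and 57 genes in all. Without the first control CD40 mouse 8 genes were called, and without the first control isotype lane 10. With the lane as the unit 0 genes were called, and DESeq2 called 392.

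Other genes of the interaction belonged to interferon response (Irf7 2.06 ± 0.49, Zbp1 1.47 ± 0.29 and Oasl1 3.10 ± 0.73, 3 of 44) and glycolysis (the glucose transporter Slc2a1 1.83 ± 0.41, Pkm 1.01 ± 0.26 and Ldha 1.08 ± 0.25, 3 of 23), all more positive in B2m-null tumours. In the 3 B2m-null isotype mice Oasl1 had 1, 7 and 0 UMIs, Irf7 2, 44 and 3, and Slc2a1 1, 69 and 2. The sizes of these 3 differences rest on few UMIs. Zbp1 was at 76.3, 125, 104, 84.1 and 102 CPM in control isotype and 75.6 and 119 in control CD40 mice. Psmb8, a subunit of the immunoproteasome, differed by 1.54 ± 0.30 (edgeR adjusted p = 0.0173). S1pr1 (-1.13 ± 0.58; edgeR adjusted p = 0.379), Hist1h1b (0.94 ± 0.27; 0.0787) and Pdcd1 (0.06 ± 0.32; 0.999) did not pass, which does not show that their changes were equal.

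The smallest adjusted p of the interaction belonged to a ribosomal protein gene. Rpl37a in control tumours was at 2147, 1978, 2048, 2418 and 2221 CPM under isotype and 5718 and 5379.8 under CD40 agonist. In B2m-null tumours it was at 3787, 3221 and 3654 and 2329, 2400.3, 2482 and 2388 CPM. It was high in 1 treatment group of each genotype, a different one in each (-1.75 ± 0.15; edgeR adjusted p = 2.89e-06). Rps28 (-1.55 ± 0.18), Rps29 (-1.50 ± 0.18) and Bola2, an iron-sulphur assembly gene (-1.58 ± 0.21), had the same pattern. Rpl37a was also higher in non-T barcodes of the B2m-null isotype lanes (2628 CPM) than of the control isotype lanes (1682 CPM). Whether a lane or library effect has a part in this pattern was not tested.

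B2m-null and control tumours were also compared under each treatment; these comparisons reuse the mice above. Under isotype, the main fit did not tell the members of the 2 genotypes apart beyond 1 gene, Rpl37a (0.63 ± 0.10, edgeR adjusted p = 0.0442), which is 0.0098% of the genes tested. By edgeR 870 genes had an unadjusted p under 0.05. DESeq2 called 49 genes, edgeR without a filter on low counts 243, and edgeR with the replicate number as a block 22. The cytotoxic genes Gzmb (1531, 1224, 1909, 1972 and 1504 CPM in control and 364, 779 and 461 CPM in B2m-null tumours; -1.60 ± 0.38, edgeR adjusted p = 0.272) and Prf1 (-1.92 ± 0.31; 0.0749) had no overlapping mice, as did 9.01% of all genes tested, and were not called. The B2m-null isotype group had 3 mice here, 2 of them with 26 and 27 members. Why these differences did not pass was not tested.

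Under CD40 agonist, 162 genes had a higher and 81 a lower level in B2m-null tumours, 2.38% of those tested (1.59% and 0.794%). Replication genes were higher in 6 of 43 (among them Tyms, Gins2, Tipin, Prim1 and Rfc4; median 0.38 against -0.01 over all genes) and mitosis genes in 4 of 62 (Cdk1, Ccnb2, Cdc20, Birc5; median 0.42), with none lower. Prim1 differed by 1.49 ± 0.23 (edgeR adjusted p = 0.00269) and Tyms by 1.26 ± 0.23. Inhibitory genes were lower in 5 of 30 (Lag3, Nr4a2, Nr4a3, Rbpj, Rgs16) and higher in 1, Cd160. Lag3, an MHC class II-binding inhibitory receptor, was at 123 and 88.1 CPM in control and 41.4, 35.0, 54.1 and 49.3 in B2m-null CD40 mice (-1.12 ± 0.24; edgeR adjusted p = 0.023), with Lag3 under isotype at 108, 75.4, 80.3, 147 and 121 and 69.3, 45.2 and 55.7 CPM. Gzmc, a granzyme of strongly stimulated T cells, was at 229 and 67.9 and 22.8, 18.3, 1.88 and 9.21 CPM (-3.59 ± 0.79; edgeR adjusted p = 0.0458). Few cells carried Gzmc: 1 cell held 82 of 123 UMIs of the second control CD40 mouse in its second lane, and single cells held 7 of 11 and 9 of 14 UMIs in 2 of the B2m-null CD40 mice. The Gzmc call was lost without either control CD40 mouse (-2.46 and -4.29; edgeR adjusted p = 0.26 and 0.0821). Bach2 was lower in B2m-null tumours (-1.74 ± 0.43). Non-T barcodes were higher in B2m-null tumours for 95.7% of the raised genes, 7.41% of the lowered genes and 38.7% of all. The count was 27 and 36 without the first and second control CD40 mouse, whose pool and group cannot be told apart. With the lane as the unit it was 4.

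Finally, the change under CD40 agonist was compared between cycling and non-cycling CD8 T cells of the 14 mice with both sets, with the mouse as block, over 10276 genes. In control tumours 3 genes changed more positively in the cycling cells (0.0292%) and 2 more negatively (0.0195%), 0.0487% together. In B2m-null tumours the numbers were 7 (0.0681%) and 1 (0.00973%), 0.0779% together. S1pr1, the receptor of T cell exit, was among them in both genotypes. It differed by 1.58 ± 0.31 in control tumours (edgeR adjusted p = 0.0237) and 2.10 ± 0.38 in B2m-null tumours (0.0119). Leaving out 1 mouse was enough to lose the S1pr1 call. In control tumours it was lost without the second CD40 mouse (1.23; edgeR adjusted p = 0.968) and without any 1 of 3 isotype mice, and without the first isotype lane S1pr1 differed by 0.85. In B2m-null tumours it was lost without the first mouse of the second CD40 lane (1.94; 0.146) and without the first mouse of the second isotype lane (1.96; 0.431). Klf2 differed by 1.45 ± 0.22 in B2m-null tumours (0.00163) and by 0.81 ± 0.19 in control tumours without passing (0.112). In non-cycling cells of control tumours S1pr1 stood at 24.4, 53.5, 69.4, 18.5 and 27.0 CPM under isotype and 108 and 122 under CD40 agonist, and in those of B2m-null tumours at 0, 72.0 and 91.5 and 53.8, 48.4, 80.8 and 68.0 CPM. Non-cycling Klf2 in B2m-null tumours was at 194, 297 and 379.7 CPM under isotype and 239.5, 216, 366 and 369 under CD40 agonist, which overlap.

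Of the other genes, Cdca3, a mitotic regulator, differed in control tumours (1.94 ± 0.36; edgeR adjusted p = 0.0133), and the survival gene Bcl2 (1.17 ± 0.24; 0.0289), the quiescence-associated Txnip (0.97 ± 0.19; 0.0283), Emb (1.05 ± 0.20; 0.0409) and Ifit3 (2.54 ± 0.52; 0.0289) in B2m-null tumours. Ifit3 had 0, 10 and 1 UMIs in the members of the 3 B2m-null isotype mice, so the size of its difference rests on few UMIs. Pdcd1 (-0.17 ± 0.30 and -0.62 ± 0.37) and Hist1h1b (0.31 ± 0.31 and -1.06 ± 0.46) did not pass in either genotype. Members with at least 2 UMIs of Mki67 and Top2a kept Cdca3 (2.23) in control tumours and Klf2 (2.03) and Emb (1.41) in B2m-null tumours past the threshold, and left S1pr1 at 1.29 and 2.14 short of it. In B2m-null tumours the direction of the S1pr1 and Bcl2 differences rests on the second isotype lane: without it, with 1 isotype mouse of 27 members left, they were -0.72 and -1.05. The Bcl2 call was also lost without any 1 of the 4 CD40 mice, at 1.11 to 1.19.

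**Figure D5:**
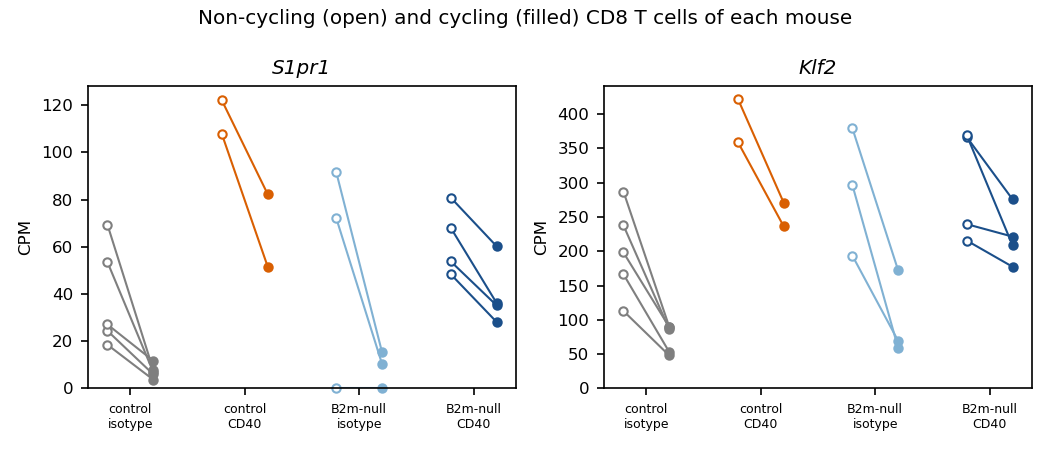
CPM of S1pr1 and Klf2 in non-cycling (open points) and cycling (filled points) CD8 T cells, with a line joining the 2 sets of each mouse, by group (linear axes from 0). Under isotype the cycling cells of control tumours lie below the non-cycling cells in S1pr1, at 3.69 to 11.7 CPM, and under CD40 agonist they reach 51.6 and 82.3 CPM.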

How the data were processed

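The deposited matrices hold raw UMI counts per gene and barcode for 8 RNA lanes, and hashtag counts for the same barcodes; per the submitters' processing notes the authors used bcl2fastq 2.20.0.422 and Cell Ranger 3.0.0 with mm10. Barcodes were assigned to mice from the hashtag counts, and doublets were those with a second hashtag; no other doublet caller was run. Member counts were summed per mouse, the technical replicate lanes together, and tested with edgeR 4.0.16 in R 4.3.3 (TMM, filterByExpr, robust quasi-likelihood, 1 model over 4 groups, Benjamini-Hochberg over all genes); the SE is the absolute log2 change over the root of F. On simulated counts for the control CD40 contrast (10204 genes, 200 changed), 70% of 2-fold and 100% of 4-fold changes were recovered. Among 176 calls 6 were false. The changed genes were drawn only from those above a minimum CPM, so recovery at lower CPM was not tested. The control CD40 mice came from a single pool, so these rates do not give the error rate of the real contrast. Shares were compared by two-sided exact permutation over mice. Log2 ratios of cycling to non-cycling cells used a pseudocount of 1 CPM. Non-T barcodes have no UMI of the T cell receptor genes.

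The members and gene lists were chosen with earlier results of these data known. Genes named are the 10 largest called rises and falls of at least 20 CPM with no overlapping mice, the 4 largest called changes of each list and a fixed set of markers; others were chosen after their values were seen, and a few genes counted in the lists are not reported here by name. Tables were handled in Python 3.11.15. Alternatives covered scaling, count filters, DESeq2 1.42.0, cell minimums, stricter cell filters, thinning, the cycling threshold and each lane or mouse left out.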

Additional observations from a re-analysis of the deposited data

Results flagged for a closer look

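Within groups of 4 or 5 mice, 182 were examined for a single mouse standing far from the rest and 11 had one, where about 1 in 20 would by chance. In control isotype mice these were a low Bola2 (86.7 CPM) and a low Pcna (476 CPM), a high Klrg1 (28.8 CPM) and Pdcd1 (252 CPM), and a member share of 9.63% of filtered cells in mouse 1 of the first lane, next to 3.94%. In B2m-null CD40 mice they were low values of Ccnd3 (118 CPM), Cdkn2d (91.0 CPM) and Gins2 (23.5 CPM) and high values of Nr4a3 (49.6 CPM), Rfc4 (71.2 CPM) and Rps29 (1076 CPM).

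The CD40 change differed between B2m-null and control tumours by the interaction test, on the log2 scale, for Bola2 (-1.58), Rpl37a (-1.75), Rps28 (-1.55) and Rps29 (-1.50), which were more negative in B2m-null tumours. It was more positive there for Cdk1 (1.00), Cdkn2d (1.12), Irf7 (2.06), Ldha (1.08), Oasl1 (3.10), Pkm (1.01), Prim1 (1.59), Psmb2 (1.64), Psmb8 (1.54), Rfc4 (0.89), Slc2a1 (1.83), Tipin (0.98), Tyms (1.26), Ube2s (0.89) and Zbp1 (1.47). The values of Irf7, Oasl1 and Slc2a1 rest on few UMIs in the B2m-null isotype mice.

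Between cycling and non-cycling CD8 T cells the CD40 change differed in control tumours for S1pr1 (1.58) and Cdca3 (1.94), and for the haemoglobin genes Hba-a1 (-11.63) and Hba-a2 (-10.90). In B2m-null tumours it differed for Bcl2 (1.17), Txnip (0.97), S1pr1 (2.10), Klf2 (1.45), Emb (1.05), Ifit3 (2.54) and Ccl17 (-6.22). The haemoglobin and Ccl17 values are fitted against groups at or near 0 UMIs and give no bound on a fold. The Ifit3 value rests on few UMIs in the B2m-null isotype members.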

How the results depend on the processing

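Of 145 called gene results, 122 of 134 stayed past the threshold with DESeq2, 139 with RLE scaling and 143 without a filter on low counts, whereas 93 of 143 did with at least 2 UMIs of Mki67 and Top2a, 70 of 128 without macrophage UMIs (C1q, Lyz2, Apoe), 74 of 134 with a stricter cell filter (500 genes, 5% mitochondrial UMIs), 101 of 135 thinned to 2000 UMIs and 42 of 134 with lanes as units. The numbers were 67 of 145 without control CD40 mouse 2 and 69 of 145 without control isotype lane 1. The mice were few, the control CD40 group was a single pool, and the shallowest B2m-null isotype mice in the tests held 26 and 27 members. The causes of the shifts below were not tested.

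Calls under CD40 agonist in control tumours (1466) became 174 by lane, where the control CD40 lanes, 1 pool, count as 1 unit assumed to vary like the other groups. Those in B2m-null tumours (353) became 885 without a filter, 88 by lane (24 higher, 64 lower), 55 with 40 cells per mouse, 164 with 2 UMIs, 11 without macrophage UMIs, 30 with the stricter cell filter and 156 thinned. B2m-null against control under isotype (1) gave 243 without a filter, 49 by DESeq2, 9 with 10 cells, 0 with 40 cells, 2 UMIs or the stricter filter, 5 without macrophage UMIs and 10 thinned. Under CD40 agonist (243) it gave 626 without a filter, 409 by DESeq2 and 4 by lane. The interaction (181) gave 428, 392 and 0 in the same order, 24 with 40 cells, 57 with 2 UMIs, 35 without macrophage UMIs and 20 with the stricter filter. Differences between cycling and non-cycling cells (5 and 8) gave 39 and 17 without a filter, and in B2m-null tumours 5 by RLE, 2 with 10 cells and 2 with 2 UMIs, the last chosen after seeing the data; lanes, DESeq2, 40 cells, macrophage-free members and the stricter filter were not run there.

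Leaving out lanes or mice gave 272 to 1840, 84 to 719, 0 to 43, 27 to 412, 8 to 381, 0 to 26 and 0 to 11 calls in that order of comparisons. The lowest counts came without control isotype lane 1 (272), B2m-null CD40 lane 2 (84), control CD40 mouse 1 (27 and 8) and mouse 2 (0 differences in control tumours), and B2m-null CD40 lane 2 mouse 1 (0 in B2m-null tumours). Without B2m-null isotype lane 2 the B2m-null differences of Bcl2 (-1.05; up to 1.28 otherwise) and S1pr1 (-0.72; up to 2.19) reversed, with 1 isotype mouse left, as did Ccr7 (0.55) in macrophage-free members under CD40 agonist.

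Cycling shares ranged from -18.9 to -13.9 points for CD40 in control tumours, -13.9 to 8.76 in B2m-null tumours (1.14 in another reversal), -9.19 to -1.76 for B2m-null against control under isotype and -2.46 to 20.2 under CD40 agonist. Shares of all cells ranged from 0.285 to 2.27, 4.90 to 5.65, -3.74 to -1.76 and 0.618 to 1.83. In the same contrasts macrophage-free members gave 1.61 (adjusted p = 0.0317, exact permutation), -1.16 (0.0317) and -0.550 for the last 3, and members with 2 UMIs -0.400 for the first.

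The deviation of each group's first lane from its group mean, in log2 CPM over 8081 genes, was correlated between groups. The correlation was 0.088 for control isotype with B2m-null isotype and 0.227 for control isotype with B2m-null CD40. It was 0.379 for B2m-null isotype with B2m-null CD40. These values carry no test, and lanes of the same replicate number were not taken as pairs in the main fit. With a replicate block, CD40 in B2m-null tumours had 776 calls (459 higher, 317 lower) and B2m-null against control under isotype 22, and 37 of 38 called gene results stayed past the threshold. No paired analysis was possible for contrasts with the control CD40 group because its lanes are 1 pool.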
